A study of Mus musculus with 14 samples.

Results

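The genes of the unfolded protein response and of protein folding in the endoplasmic reticulum (ER) were followed in sorted cells of the mouse submandibular gland, a salivary gland that makes large amounts of secreted protein. The set was a fixed list of 31 gene symbols, chosen with earlier results of these data known and matched to the gene names of the deposited count table. All 31 were found among its 54532 genes, and 32 entries carried a member's symbol because Ddit3 has a second entry with a count of 0 in every library. All 31 passed the filter on low counts and were among the 15915 genes tested.

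All libraries came from adult mice of the genotype TertCreERT2/+Rosa26LSL-tdTomato/+. In these mice a tamoxifen-dependent Cre recombinase made from 1 Tert allele switches on a tdTomato reporter for good, so that a red cell need not contain Tert RNA when it is sorted. Cells that excluded DAPI and carried the epithelial surface protein EpCAM were sorted into a tdTomato+ population, called Tert+ here, and a tdTomato- population, called Tert-. The groups were Tert+ cells without radiation (n = 3), Tert- cells without radiation (n = 3), Tert+ cells after 15 Gy of radiation, or RT (n = 4), and Tert- cells after 15 Gy (n = 4). The labels do not give the time between RT and sorting, and they do not say whether replicates were separate animals, so a p-value here reflects the spread of libraries that may be technical repeats. It is also not stated whether Tert+ and Tert- libraries came from the same animals. Library numbers alternate between the populations, with each Tert+ library followed by the Tert- library of the same RT state and replicate number. That order does not state whether they shared an animal. The main fit treats all libraries as independent, so an animal may be counted in both populations. The library numbers of all RT libraries follow those of the untreated ones, so library order and RT cannot be told apart.

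When unfolded protein builds up in the ER, 3 sensors in its membrane respond: IRE1, encoded by Ern1, PERK, encoded by Eif2ak3, and ATF6. IRE1 splices the Xbp1 messenger RNA, PERK slows translation while the transcription factor ATF4 is still made, and ATF6 is cut to release a transcription factor. These factors act on genes for chaperones, for enzymes that make disulfide bonds, for the translocon that lets new chains into the ER, and for the machinery that removes misfolded chains. Splicing of Xbp1, phosphorylation of PERK and cleavage of ATF6 happen to existing RNA or protein and are not measured by counts per gene.

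Libraries held 5520412 to 15943597 counts. The cell type field of the labels names the other population in 14 of 14 libraries, and groups here follow the titles, with which the sample descriptions and the column names of the table go together. Without RT, Tert itself had 0, 7 and 8 counts in the Tert+ libraries and 22, 28 and 13 in the Tert- libraries, against the direction of the titles. After RT it had 0, 52, 34 and 15 counts in Tert+ and 0, 0, 9 and 15 in Tert-, so Tert RNA does not settle which population is which. Genes that mark epithelial cells took 0.0100% to 0.0510% of counts, Epcam was at 29.7 to 126 CPM (counts scaled to the library total), and Krt19, Krt5 and Krt14 were at 0 in some libraries. Genes that mark mature B cells took 0.788% to 1.31%, more than these general epithelial markers in every library of this epithelial sort. Markers of acinar cells, which are also epithelial, took 0.277% to 2.94%, above the B cell share in some libraries and below it in others. Shares of marker counts do not compare numbers of cells. Tert+ without RT replicate 1 stood apart within its group of 3 by an acinar gene share of 2.94%, though Tert+ RT replicate 2 was at 2.75% and the others ran from 0.277% to 2.03%, and Tert+ after RT replicate 4 by its place on the second principal component. Counts of calls for the mean RT effect are also given without each of these libraries. Fold changes without 1 of them are given for Derl3, P4hb and Hspa5.

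The DNA before the start sites is shown first, because 9 of the 26 members with an entry in the RefSeq promoter table (GRCm38.p6, the same build as mm10) held an exact copy of the ER stress element, the sequence through which ATF6 and XBP1 are known to act on chaperone genes. The element searched for was CCAAT, any 9 bases, then CCACG, on both strands, in windows from 250 bases before the start to 50 after it. It was present for 34.6% of the 26 members and for 0.137% of all 27025 genes in the table. The members include chaperone genes of this kind, so the higher share follows from how the list was made. The 10 copies are listed in the reading direction of the element, with the fixed bases in capitals. Hsp90b1 held 2 copies.
Hspa5: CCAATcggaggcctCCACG
Hsp90b1: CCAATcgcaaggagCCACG
Hsp90b1: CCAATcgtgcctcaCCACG
Calr: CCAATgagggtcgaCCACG
Canx: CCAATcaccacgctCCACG
Pdia6: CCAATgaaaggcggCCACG
Creld2: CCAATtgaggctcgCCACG
Dnajc3: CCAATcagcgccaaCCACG
Derl3: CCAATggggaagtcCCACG
Syvn1: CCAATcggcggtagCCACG
On mm10 these include Hspa5 at chr2:34772025-34772043, Pdia6 at chr12:17266491-17266509, Creld2 at chr15:88819520-88819538, Dnajc3 at chr14:118937827-118937845, Derl3 at chr10:75893242-75893260. Counted from the RefSeq start, the copies in Hspa5 and Pdia6 began 65 and 98 bases before it, and those of Calr, Derl3, Creld2 and 1 of the 2 in Hsp90b1 lay on the opposite strand.

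A second form, the ER stress element II (ATTGG, any base, then CCACG), was found for Herpud1 and Dnajb11, 7.69% of the 26 members against 0.0444% of all genes. Counted from the RefSeq start, the copy in Herpud1 lay at -52 to -42. The copy in Dnajb11 lay at 8 to 18, after the start. Both copies are shown because Dnajb11 fell after RT and Herpud1 did not pass the test.
Herpud1: ATTGGgCCACG
Dnajb11: ATTGGcCCACG
The sequence TGACGTGG, an ATF6 site known as the unfolded protein response element, was found for 0 of 26 members and for 0.714% of all genes. The amino acid response core TGATGNAA, which ATF4 binds, was found for 1 member, Herpud1 (3.85%), against 4.51% of all genes. Derl1, Atf6, Hyou1, Sec61a1 and Manf had no entry. A match of letters is a description and does not show that a factor was bound.

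Longer stretches are given for 3 members that the RT results turn on. Creld2 fell after RT and its element reads on the opposite strand. Sdf2l1 fell, and Eif2ak3 rose, without an exact copy of either element in the window. Each stretch holds the 250 bases before the RefSeq start in the direction of the gene, for Creld2 (chr15:88819396-88819645, + strand), Sdf2l1 (chr16:17132384-17132633, - strand) and Eif2ak3 (chr6:70844265-70844514, + strand), with the fixed bases of the element in capitals.
Creld2: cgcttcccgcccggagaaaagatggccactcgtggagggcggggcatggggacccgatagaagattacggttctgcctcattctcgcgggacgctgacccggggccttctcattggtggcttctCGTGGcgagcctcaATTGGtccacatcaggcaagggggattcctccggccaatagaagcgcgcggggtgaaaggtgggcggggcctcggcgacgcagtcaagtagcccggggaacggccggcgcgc
Sdf2l1: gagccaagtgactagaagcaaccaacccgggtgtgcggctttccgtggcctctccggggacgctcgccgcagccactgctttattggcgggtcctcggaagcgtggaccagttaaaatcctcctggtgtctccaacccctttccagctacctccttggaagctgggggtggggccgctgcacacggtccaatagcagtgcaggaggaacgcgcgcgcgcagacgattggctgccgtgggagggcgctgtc
Eif2ak3: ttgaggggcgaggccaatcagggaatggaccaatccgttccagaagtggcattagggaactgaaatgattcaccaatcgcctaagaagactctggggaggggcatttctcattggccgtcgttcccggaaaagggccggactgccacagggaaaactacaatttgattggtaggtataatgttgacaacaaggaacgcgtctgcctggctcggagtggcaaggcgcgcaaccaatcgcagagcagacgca

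The members differed widely in level. Per kilobase of gene length and averaged over all 14 libraries, Hspa5, the ER chaperone BiP, was highest at 308 CPM per kb, above 99.0% of the genes tested. Calr followed at 194 CPM per kb, Herpud1 at 186, P4hb at 170 and Pdia3 at 132. The ER lectin Calr binds sugar chains, P4hb and Pdia3 shuffle disulfide bonds, and Herpud1 takes part in ER-associated degradation. The lowest 3 were Derl3 at 3.39 CPM per kb, the BiP exchange factor Hyou1 at 1.44 and the sensor Ern1 at 1.08. Among the sensors Eif2ak3 was highest, at 27.5 CPM per kb, ahead of Atf6 at 9.49. Together the 31 genes took 0.692% to 0.753% of counts in Tert+ cells without RT and 0.604% to 0.672% after RT, and 0.678% to 0.767% and 0.612% to 0.684% in Tert- cells. The shares of the Tert+ groups did not overlap, and those of the Tert- groups overlapped slightly.

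**Figure D1:**
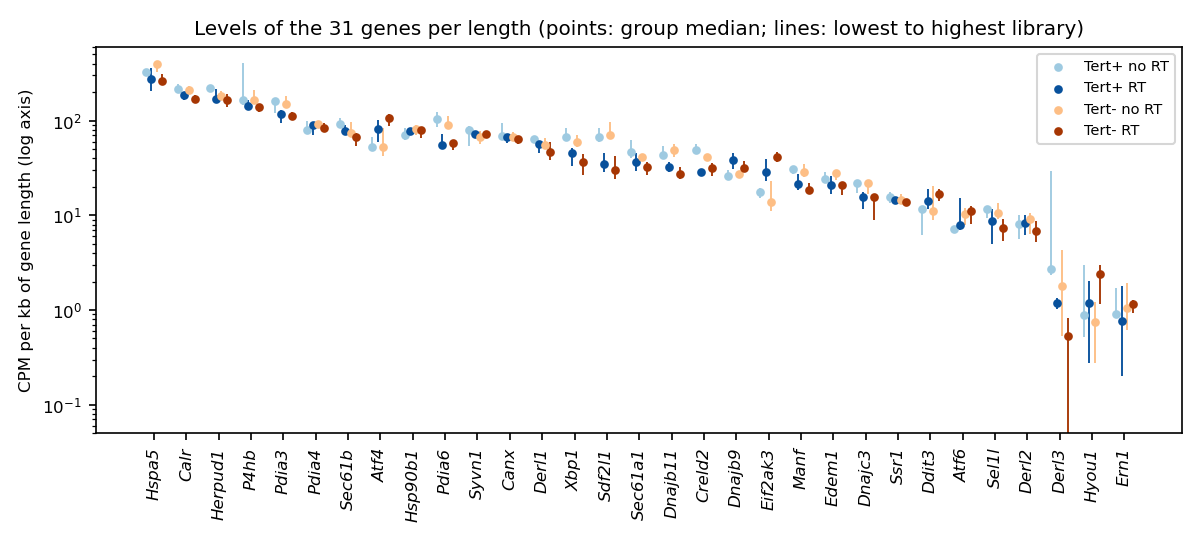
Level of each of the 31 genes in CPM per kilobase of gene length (log axis), with points at the group median and lines from the lowest to the highest library for the 4 groups; the Derl3 line in Tert- cells after RT runs to the axis because 1 library is at 0. Levels fall from Hspa5 on the left to Ern1 on the right, and the lines are longest for Derl3, Hyou1 and Ern1.

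Radiation was compared first as the mean of its effect in the 2 populations, which uses all 14 libraries. More members were lower than higher after RT: 12 of 31 members fell and 3 rose, and 16 did not pass an adjusted p of 0.05. The 12 that fell were the co-chaperones Sdf2l1, Dnajb11, Manf and Dnajc3, the disulfide enzymes Pdia6, Creld2 and Pdia3, the lectin Calr, the transcription factor Xbp1, the degradation genes Derl3 and Edem1, and the translocon channel Sec61a1. The 3 that rose were Eif2ak3, which encodes the sensor PERK, Atf4, the factor made under PERK signalling, and Dnajb9, a co-chaperone of BiP. In bulk RNA, fewer cells of a type and less RNA per cell cannot be told apart.

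Over all genes tested, 7% were called lower and 6.36% higher in the same fit, 13.4% in either direction, against 38.7% lower and 9.68% higher among the members. Most members are abundant, and abundant genes are called more often. Among the 3936 genes with a mean of at least 50 CPM, as 27 of the members have, 16.7% were called lower and 12.4% higher. The share of members that rose was thus near the background and the share that fell above it. The members were chosen with earlier results of these data known, so this excess is a description and not a test. The median log2 fold change was -0.29 over the members and -0.01 over all genes, and 23 of 31 members had a negative value. For 5 members, Sdf2l1, Pdia6, Creld2, Dnajb11 and Xbp1, each of the 8 RT libraries was below each of the 6 libraries without RT. Over all genes 1.33% did so. No member had all RT libraries above, as 1.82% of all genes did.

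Of the 15 calls, 9 held when any of the 14 libraries was left out and in all 8 other settings: Sdf2l1, Pdia6, Creld2, Dnajb11, Xbp1, Manf and Pdia3 among those that fell, and Eif2ak3 and Atf4 among those that rose. Leaving out Tert+ no RT replicate 1 gave 9 calls, as did leaving out Tert- no RT replicate 3. Without Tert+ RT replicate 4 there were 14, and without both libraries that stand apart, a setting added after seeing the data, 11. Over all genes 2126 were called with all libraries, and 2284, 1211, 2064 and 2442 in these sets, in the order given. Calr, Derl3, Dnajc3, Edem1, Sec61a1 and Dnajb9 all lost their call without Tert+ no RT replicate 1. Dnajc3 and Sec61a1 also lost it without Tert+ RT replicate 4.

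**Figure D2:**
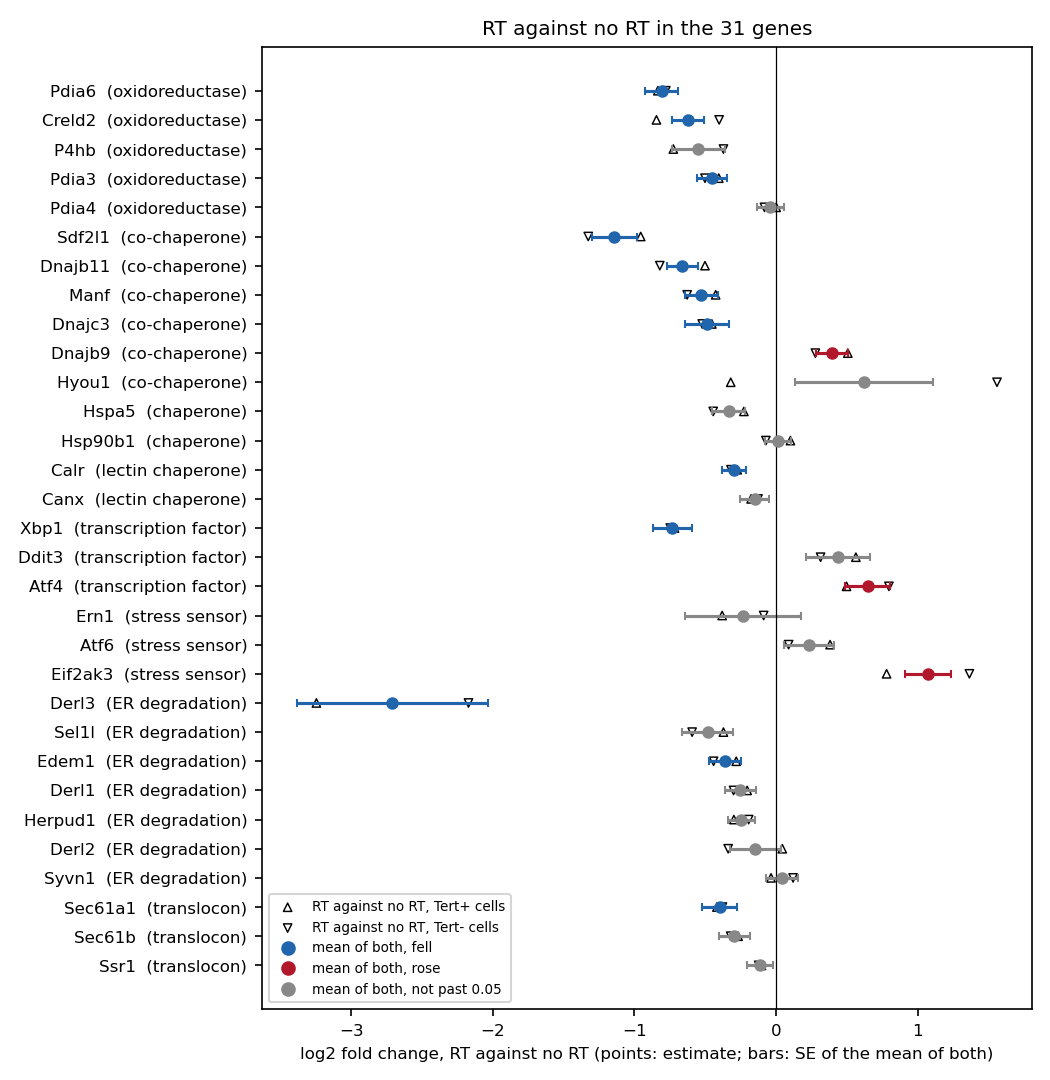
Log2 fold change of RT against no RT for the 31 genes grouped by role, with filled points and SE bars for the mean of both populations and open triangles for Tert+ and Tert- cells alone. Filled blue points mark the 12 genes that fell, red points the 3 that rose and grey points the 16 that did not pass.

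The sensors did not move as 1 group. Eif2ak3 was at 117, 107 and 90.9 CPM in Tert+ cells without RT and at 236, 184, 163 and 139 CPM after RT. In Tert- cells it was at 140.0, 82.9 and 66.9 CPM without RT and at 279, 223, 257 and 237 CPM after RT. In each population all RT libraries were above all libraries without RT. Across populations, Tert+ RT replicate 4 lay just below Tert- no RT replicate 1. Eif2ak3 rose 2.1-fold in the mean of both populations (log2 fold change 1.07, SE 0.16, adjusted p = 0.00131, edgeR quasi-likelihood test). It lies at chr6:70844515-70905245, where Gm43292 overlaps it on the opposite strand with 5 to 159 counts.

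Atf6 was at 66.5, 64.2 and 71.8 CPM in Tert+ cells without RT and at 74.9, 64.2, 142 and 71.3 CPM after RT. The Tert- libraries gave 96.4, 109 and 72.2 CPM without RT and 104, 75.1, 115 and 100.3 CPM after RT. The ranges with and without RT overlapped in both populations, and the 142 CPM of Tert+ after RT replicate 3 lay far above the other 3 libraries of its group. The difference did not pass (log2 fold change 0.23, SE 0.18, adjusted p = 0.409). Ern1 was at 13.9, 6.95 and 7.44 CPM in Tert+ cells without RT and at 5.58, 6.95, 1.64 and 14.6 CPM after RT. Tert- cells had 15.7, 4.98 and 8.61 CPM without RT and 10.3, 10.4, 7.54 and 8.54 CPM after RT. IRE1, its product, cuts the Xbp1 messenger. The ranges overlapped, and the level was too low for a precise value (log2 fold change -0.23, SE 0.41, adjusted p = 0.761, 95% interval -1.11 to 0.64).

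The 3 transcription factors differed from each other. Xbp1 was at 274, 218 and 217 CPM in Tert+ cells without RT and at 167, 141, 109 and 158 CPM after RT. Its values in Tert- cells were 170.1, 191 and 228 CPM without RT and 87.0, 101, 135 and 145 CPM after RT. Every RT library lay below every library without RT. Xbp1, at chr11:5520659-5525893, fell 1.66-fold (log2 fold change -0.73, SE 0.14, adjusted p = 0.00392), and counts per gene do not separate its spliced from its unspliced form.

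Atf4 was at 157, 125 and 124 CPM in Tert+ cells without RT and at 139, 206, 176 and 242 CPM after RT. Without RT the Tert- libraries were at 198, 125 and 101 CPM, and after RT at 229.8, 207, 278 and 268 CPM. All Tert- libraries were higher after RT, while Tert+ RT replicate 1 lay within the range without RT. Atf4 rose 1.57-fold (log2 fold change 0.65, SE 0.16, adjusted p = 0.0161), and its adjusted p was at most 0.0497 over all settings. Ddit3 was at 10.5, 20.2 and 20.2 CPM in Tert+ cells without RT and at 26.1, 19.9, 22.1 and 32.3 CPM after RT. For Tert- cells these were 34.8, 19.1 and 15.1 CPM and, after RT, 24.1, 28.4, 29.8 and 32.2 CPM. This gene encodes CHOP, a factor that ATF4 induces under lasting stress. Its ranges overlapped and the difference did not pass (log2 fold change 0.44, SE 0.23, adjusted p = 0.214, 95% interval -0.04 to 0.92). Mars overlaps Ddit3 by 68 bases on the opposite strand, and whether counting used the strand is not stated.

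Of the main ER chaperones, neither passed with all 14 libraries. Hspa5 was at 1415, 1314 and 1389 CPM in Tert+ cells without RT and at 1308, 875, 1003 and 1504 CPM after RT. In Tert- cells it was at 1696, 1675 and 1378 CPM without RT and at 1139, 1107, 1088 and 1321 CPM after RT. After RT the Tert- libraries were all below those without RT, while in Tert+ cells RT replicate 4 was above all libraries without RT and the other 3 were below them. With all libraries the log2 fold change of Hspa5 was -0.34 (SE 0.11, adjusted p = 0.0648, 95% interval -0.58 to -0.09). Without Tert+ RT replicate 4 it was -0.40 and passed (adjusted p = 0.0210), as it did with DESeq2 (adjusted p = 0.0312) and limma voom (adjusted p = 0.0410). Hspa5 did not pass when any other single library was left out (adjusted p from 0.0696 to 0.139). Nor did it pass with the other scalings and filters in edgeR (adjusted p from 0.0722 to 0.114). Hsp90b1, the ER form of HSP90, ran from 251 to 367 CPM over all libraries, with a log2 fold change of 0.01 (95% interval -0.18 to 0.21, adjusted p = 0.948).

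Co-chaperones, which drive or assist the cycle of BiP, held the member with the smallest p. Sdf2l1 was at 75.3, 66.6 and 91.6 CPM in Tert+ cells without RT and at 37.9, 39.4, 32.1 and 50.9 CPM after RT. The Tert- libraries gave 77.2, 78.3 and 107 CPM without RT and 47.2, 35.9, 26.6 and 30.1 CPM after RT. Every RT library, at most 50.9 CPM, was below every library without RT, at least 66.6 CPM. Sdf2l1, which works with Dnajb11 at BiP, fell 2.21-fold (log2 fold change -1.14, SE 0.16, adjusted p = 0.000825). It lies at chr16:17130138-17132383.

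Dnajb11 was at 139, 133 and 175 CPM in Tert+ cells without RT and at 118, 99.3, 92.1 and 111 CPM after RT. Tert- cells had 135, 159 and 184 CPM without RT and 84.9, 79.3, 92.7 and 104 CPM after RT. Again every RT library was below every library without RT. Dnajb11 encodes ERdj3, which hands unfolded chains to BiP, and fell 1.58-fold (log2 fold change -0.66, SE 0.11, adjusted p = 0.00192). Manf was at 112, 96.4 and 108 CPM in Tert+ cells without RT and at 64.8, 76.9, 74.8 and 97.1 CPM after RT. Its values in Tert- cells were 102, 89.4 and 123 CPM without RT and 77.6, 68.0, 63.9 and 61.9 CPM after RT. The ranges did not overlap in Tert- cells, and in Tert+ cells the 97.1 CPM of RT replicate 4 lay just above the lowest library without RT. Manf, a secreted protein that binds BiP, fell 1.44-fold (log2 fold change -0.53, SE 0.12, adjusted p = 0.00916). Manf overlaps Rbm15b on the same strand and Dcaf1 on the opposite strand in the table, so its counts are less certain.

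Dnajc3 was at 113, 88.7 and 119.8 CPM in Tert+ cells without RT and at 59.9, 85.7, 91.4 and 76.0 CPM after RT. Without RT the Tert- libraries were at 113, 86.8 and 116 CPM, and after RT at 46.1, 86.9, 73.4 and 85.9 CPM. The ranges overlapped in both populations, through RT libraries close to the lowest library without RT. Dnajc3 encodes p58IPK, which holds back PERK, and fell 1.4-fold (log2 fold change -0.49, SE 0.15, adjusted p = 0.0464), a call kept in 1 of 14 sets that leave out a library. Dnajb9 was at 66.6, 76.3 and 63.9 CPM in Tert+ cells without RT and at 96.0, 78.7, 116 and 101 CPM after RT. For Tert- cells these were 69.4, 71.3 and 63.3 CPM and, after RT, 72.7, 75.6, 95.6 and 85.8 CPM. All RT libraries were above those without RT within each population, by little in Tert- cells. Dnajb9 encodes ERdj4, which binds IRE1, and rose 1.31-fold (log2 fold change 0.39, SE 0.11, adjusted p = 0.0329), a call kept in 8 of 14 such sets. Hyou1 lay between 1.99 and 21.6 CPM and did not pass (log2 fold change 0.62, SE 0.49, adjusted p = 0.438).

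Of the 5 enzymes and related proteins that act on disulfide bonds, 3 fell. Pdia6 was at 320.3, 394 and 458 CPM in Tert+ cells without RT and at 221, 195, 188 and 272 CPM after RT. In Tert- cells it was at 339, 336 and 424 CPM without RT and at 198, 237, 183 and 236 CPM after RT. Every RT library was below every library without RT. Pdia6, at chr12:17266545-17284770, fell 1.75-fold (log2 fold change -0.81, SE 0.12, adjusted p = 0.00105).

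Creld2 was at 67.6, 64.6 and 76.8 CPM in Tert+ cells without RT and at 41.1, 41.7, 36.7 and 35.7 CPM after RT. The Tert- libraries gave 54.9, 56.7 and 57.0 CPM without RT and 48.4, 35.5, 40.2 and 46.0 CPM after RT. The ranges did not overlap, and the Tert+ libraries without RT were the highest of all. Creld2, an ER-stress-inducible protein at chr15:88819646-88826683, fell 1.54-fold (log2 fold change -0.62, SE 0.11, adjusted p = 0.00339). Pdia3 was at 549, 377 and 511 CPM in Tert+ cells without RT and at 381, 361, 299.5 and 406 CPM after RT. Tert- cells had 577, 459.6 and 476 CPM without RT and 389, 353, 328 and 354 CPM after RT. In Tert- cells the ranges did not overlap, and in Tert+ cells RT replicates 1 and 4 were above the lowest library without RT. Pdia3, the partner of calreticulin and calnexin, fell 1.37-fold (log2 fold change -0.45, SE 0.10, adjusted p = 0.0114).

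P4hb and Pdia4 did not pass. P4hb, which is also a subunit of collagen prolyl hydroxylase, was at 1162 CPM in Tert+ without RT replicate 1 and between 352 and 599.8 CPM in the other 13 libraries. Its log2 fold change was -0.55 (adjusted p = 0.0621) and -0.24 without that library (adjusted p = 0.135). It passed without Tert+ no RT replicate 2 (-0.67, adjusted p = 0.028) or replicate 3 (-0.66, adjusted p = 0.044). Pdia4 was close to 0 (log2 fold change -0.04, SE 0.10, adjusted p = 0.831, 95% interval -0.25 to 0.16).

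**Figure D3:**
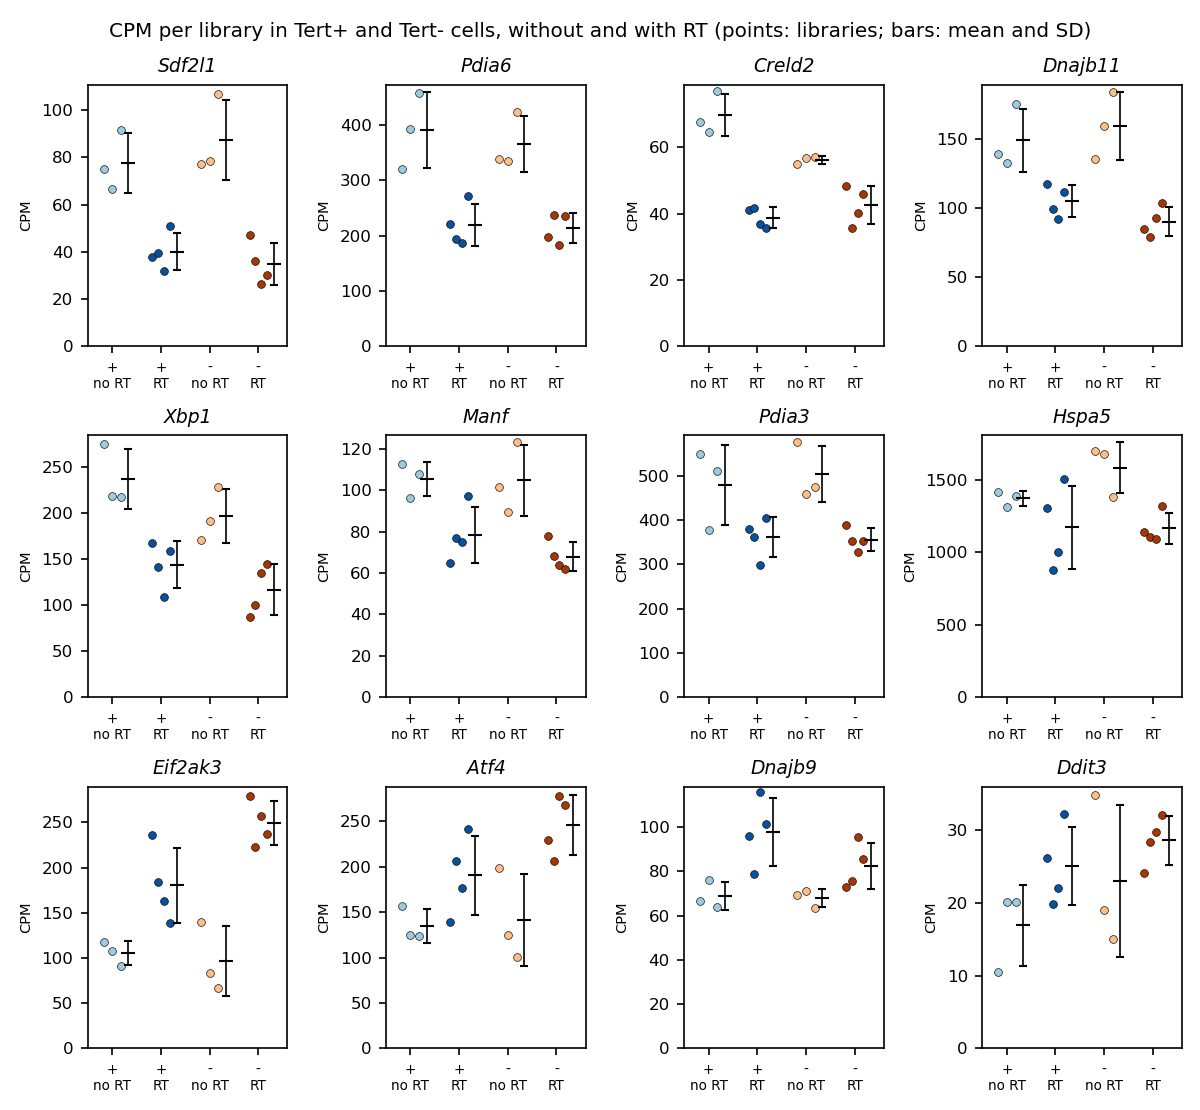
CPM of 12 of the genes in every library, by population (+ or -) and RT; points are libraries and bars the group mean and SD, on linear axes that start at 0. For Sdf2l1, Pdia6, Creld2, Dnajb11 and Xbp1 every RT library is below every library without RT. Eif2ak3 and Dnajb9 are higher after RT with some overlap across populations, and Atf4 is higher with overlap also within Tert+ cells.

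The lectin chaperones hold glycoproteins until they are folded. Calr was at 703, 592 and 629.7 CPM in Tert+ cells without RT and at 481, 573, 524 and 544 CPM after RT. Its values in Tert- cells were 605, 550.0 and 672 CPM without RT and 523, 534, 452 and 445 CPM after RT. The RT libraries were below those without RT within each population, though 573 CPM in Tert+ RT replicate 2 was above the lowest Tert- library without RT. Calr fell 1.23-fold (log2 fold change -0.30, SE 0.08, adjusted p = 0.0323), a call kept in 6 of 14 sets that leave out a library. Canx did not pass (log2 fold change -0.15, SE 0.10, adjusted p = 0.362).

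Of 7 genes of ER-associated degradation, in which misfolded chains are moved out and destroyed, Edem1 and Derl3 fell. Edem1 was at 157, 183 and 155 CPM in Tert+ cells without RT and at 132, 136, 108 and 167 CPM after RT. Without RT the Tert- libraries were at 189, 154 and 181 CPM, and after RT at 128, 105, 143 and 139 CPM. The ranges did not overlap in Tert- cells and overlapped in Tert+ cells through RT replicate 4. Edem1, a lectin that picks misfolded glycoproteins, fell 1.28-fold (log2 fold change -0.36, SE 0.11, adjusted p = 0.0436), a call kept in 1 of 14 such sets.

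Derl3 was at 57.9, 4.68 and 5.47 CPM in Tert+ cells without RT and at 2.70, 2.42, 2.32 and 2.05 CPM after RT. For Tert- cells these were 3.61, 1.05 and 8.61 CPM and, after RT, 0, 1.17, 0.926 and 1.64 CPM. Tert+ without RT replicate 1 stood far above all others, of which the highest was at 8.61 CPM. Derl3, a derlin made mostly in secretory cells, fell 6.54-fold (log2 fold change -2.71, SE 0.67, adjusted p = 0.0168). Without that library the log2 fold change was -1.64 (adjusted p = 0.123), and without Tert- no RT replicate 3 it was -2.25 (adjusted p = 0.0614). The same library had the highest acinar gene share, 2.94%, against 0.277% and 0.581% in the other libraries of its group. Tert+ RT replicate 2, with an acinar share of 2.75%, had Derl3 at 2.42 CPM. The 2 shares were made up differently. The acinar gene Pip was at 4055 CPM in Tert+ no RT replicate 1 and at 116 CPM in Tert+ RT replicate 2. The part of acinar cells in the Derl3 result was not tested.

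The other 5 degradation genes did not pass. Herpud1, Derl1 and Sel1l had log2 fold changes of -0.25, -0.25 and -0.48 with adjusted p of 0.0965, 0.144 and 0.0871. Derl2 was at -0.15 and Syvn1, the ubiquitin ligase of this pathway, at 0.04 (95% interval -0.19 to 0.28).

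At the translocon, Sec61a1 was at 420.5, 314 and 269 CPM in Tert+ cells without RT and at 273, 305, 223 and 199.8 CPM after RT. In Tert- cells it was at 278, 285 and 275 CPM without RT and at 197, 235, 181 and 246 CPM after RT. The ranges overlapped in Tert+ cells and not in Tert- cells. Sec61a1, the channel itself, fell 1.32-fold (log2 fold change -0.40, SE 0.12, adjusted p = 0.0447), a call kept in 2 of 14 sets that leave out a library. Sec61b and Ssr1, its smaller partners, did not pass, with log2 fold changes of -0.29 (adjusted p = 0.0932) and -0.11 (adjusted p = 0.456).

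Of the 10 members that fell and had a promoter entry, 6 held either form of the ER stress element. The 3 that rose held none, and of the 13 that did not pass 5 held one. Hspa5 and Hsp90b1, with their copies listed at the start, were among those 5. Too few members are in each class for more than this count.

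RT was then compared within each population. In Tert+ cells 3 of 31 members fell and none rose: Creld2 (log2 fold change -0.84, SE 0.16, adjusted p = 0.0203), Pdia6 (log2 fold change -0.83, SE 0.16, adjusted p = 0.0237) and Sdf2l1 (log2 fold change -0.96, SE 0.22, adjusted p = 0.0405). Over all genes 1.98% were called there, 0.873% lower and 1.11% higher. In Tert- cells Sdf2l1 (log2 fold change -1.33, SE 0.22, adjusted p = 0.0146), Dnajb11 (log2 fold change -0.82, SE 0.16, adjusted p = 0.0242) and Pdia6 (log2 fold change -0.78, SE 0.16, adjusted p = 0.0327) fell, and Eif2ak3 rose (log2 fold change 1.36, SE 0.23, adjusted p = 0.0146). Over all genes 1.62% were called in Tert- cells, 0.804% lower and 0.817% higher.

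Sdf2l1 and Pdia6 passed in both populations. The libraries compared differ, but 1 fit over all 14 gives the spread for both, so the calls are not separate. Of 14 sets that leave out a library, Sdf2l1 kept its call in 5 in Tert+ cells and in 11 in Tert- cells, and Pdia6 in 10 and 7. In Tert+ cells Sdf2l1 was among the calls lost without Tert+ no RT replicate 1. The median member was at -0.28 in Tert+ cells and -0.32 in Tert- cells, beside -0.0013 and -0.016 over all genes. All libraries after RT were below those without RT for 7 members in Tert+ cells (8.25% of all genes) and for 13 in Tert- cells (9.22%). They were above for 2 members (7.28% of all genes) and for 3 (9.7%).

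These counts are small and moved with the libraries used. In Tert+ cells no member passed without Tert+ no RT replicate 2 or 3 or Tert+ RT replicate 3, 1 passed without Tert+ RT replicate 2, and none passed when the 2 groups were fitted alone. In Tert- cells no member passed without Tert- no RT replicate 2 or 3 or Tert- RT replicate 3, and 2 passed without Tert- RT replicate 1 or 2. Calls over all genes fell in the same sets. In Tert+ cells 315 genes were called with all libraries, and 22, 21, 101 and 100 in these sets, in the order given. The fit of the 2 groups alone called 49. In Tert- cells 258 genes were called with all libraries, and 19, 18, 21, 111 and 60 in these sets.

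The RT effect was not shown to differ between the populations. The test of the difference called 0 of 31 members and 0% of all genes, and 0 members and 578 genes (3.63%) had an unadjusted p under 0.05. DESeq2 and limma voom also called 0 members. For Eif2ak3 the difference, Tert+ minus Tert-, was -0.58 (95% interval -1.26 to 0.09). For Creld2 it was -0.44 (-0.93 to 0.04), and for Sdf2l1 0.37 (-0.30 to 1.04). These intervals, on the log2 scale, leave room for differences as large as many of the RT effects.

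Tert+ and Tert- cells were also compared directly. Without RT 0 of 31 members passed, beside 0.0377% of all genes, and after RT 0 members and 0.0126% of all genes did. DESeq2 and limma voom called 0 members in both. At an unadjusted p under 0.05, as for 4.5% of all genes, there was 1 member without RT, Derl3 (log2 fold change 2.36), whose value rests on the same Tert+ replicate 1. After RT there was 1, with 7.39% of all genes, namely Eif2ak3 (log2 fold change -0.46, lower in Tert+ cells, with ranges of 139 to 236 and 223 to 279 CPM). These comparisons share libraries with those of RT above. For Hspa5 the difference without RT was -0.21 (95% interval -0.58 to 0.16), and for Xbp1 0.27 (-0.17 to 0.71).

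Other genes of the secretory pathway were read from 6 lists with 134 genes, of which 131 were tested. In the mean RT comparison 32 of them fell and 4 rose, 24.4% and 3.05%, and their median log2 fold change was -0.23. Over all genes 7% fell and 6.36% rose, and among genes with a mean of at least 50 CPM 16.7% and 12.4%. The counts of each list below are to be read beside these shares, to which several lists are close. These lists too were chosen with earlier results of these data known. Among genes that ATF4 and CHOP are known to induce, 7 of 24 fell and 1 rose. The aminoacyl-tRNA synthetase genes Gars and Nars were at -0.90 (SE 0.12, adjusted p = 0.000577) and -0.68 (SE 0.12, adjusted p = 0.00241), and Shmt2, a mitochondrial serine enzyme, was at -0.87 (SE 0.14, adjusted p = 0.00192). Ppp1r15a, which encodes the phosphatase subunit GADD34, rose, with a log2 fold change of 0.65 (SE 0.17, adjusted p = 0.0212). Atf4 itself rose, as given above. Of these target genes, 21 had a promoter entry, and 9 of them (42.9%) held the core TGATGNAA.

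Among other ER folding enzymes 4 of 22 fell and 1 rose. Txndc5, a disulfide isomerase, was at -0.75 (SE 0.13, adjusted p = 0.00281) and Fkbp2, a prolyl isomerase, at -0.90 (SE 0.18, adjusted p = 0.006), while Ero1lb, an oxidase that recharges disulfide isomerases, rose, at 0.73 (SE 0.10, adjusted p = 0.000825). In the transfer and trimming of sugar chains 7 of 20 fell and 1 rose. Ddost, a subunit of the oligosaccharyltransferase, was at -0.61 (SE 0.10, adjusted p = 0.00222), and Dpm1, which makes a mannose donor, rose, at 1.23 (SE 0.19, adjusted p = 0.00144). Of other translocon and signal peptidase genes 4 of 20 fell and none rose, led by the signal peptidase subunit Spcs3 at -0.69 (SE 0.13, adjusted p = 0.00494). Of other degradation genes 6 of 20 fell and none rose, among them Nploc4 at -0.54 (SE 0.12, adjusted p = 0.00881). In transport from the ER to the Golgi 4 of 25 fell and 1 rose. Copa, a subunit of the COPI coat, was at -0.68 (SE 0.11, adjusted p = 0.00138), and the COPII subunit Sec24a rose, at 0.74 (SE 0.20, adjusted p = 0.0219).

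**Figure D4:**
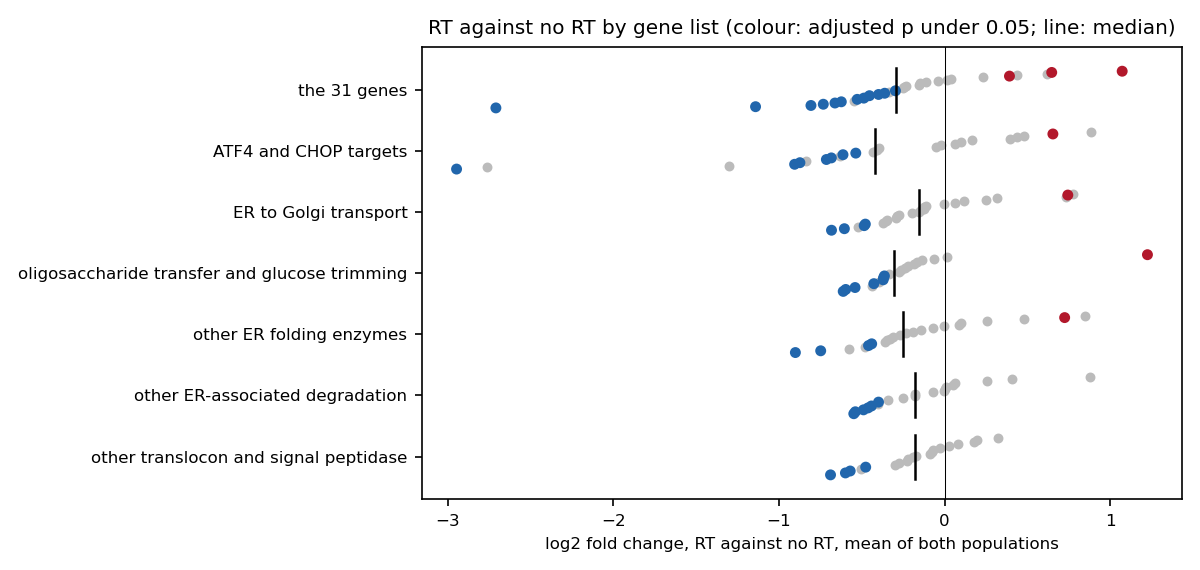
Log2 fold change of RT against no RT, mean of both populations, for the 31 genes and for the tested genes of 6 further lists; each point is a gene, coloured where the adjusted p is under 0.05 (blue lower, red higher), and the black line is the list's median. All 7 medians are below 0, at -0.29 for the 31 genes.

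Some cell type markers moved with RT too, beside 7% of all genes called lower and 6.36% higher. Of 8 germinal centre B cell markers 7 fell, and their summed share went from 0.0315% to 0.0735% of counts in Tert+ cells without RT to 0.0116% to 0.0148% after RT, and from 0.0276% to 0.0312% to 0.0112% to 0.0126% in Tert- cells. Of 12 plasma cell markers tested 3 fell, Txndc5 (also counted above among other ER folding enzymes), Jchain and Tnfrsf13b, and Irf4 rose. Their summed share was 0.161% to 0.223% without RT and 0.154% to 0.183% after RT in Tert+ cells, and 0.164% to 0.187% and 0.152% to 0.178% in Tert- cells, so these ranges overlapped. Jchain, which joins secreted antibody, was at 81.4 to 93.7 CPM in Tert+ cells without RT and at 0 to 31.1 CPM after RT, and at 20.4 to 77.0 CPM and 0 to 1.43 CPM in Tert- cells. Tnfrsf17 was at 0 in some libraries. The plasma cell share includes Txndc5, so it is not separate from the ER genes. None of the 8 mature B cell markers passed, and 2 of 11 acinar markers, Pip and Lpo, fell. The acinar share ran from 0.277% to 2.94% in Tert+ cells without RT and from 0.426% to 2.75% after RT, and from 0.383% to 1.88% and 0.411% to 1.49% in Tert- cells. Of 7 macrophage markers 2 fell, Csf1r and Cd68, and Adgre1 was at 0 in some libraries. Positive log2 fold changes were found for 4 of the 7 and negative ones for 3, with a median of 0.15. In Tert+ cells alone 4 were positive and 3 negative (median 1.64), and in Tert- cells all 7 were negative (median -1.24). The macrophage share was 0.145% to 0.191% without RT and 0.0269% to 0.117% after RT in Tert- cells, which did not overlap, and 0.0104% to 0.0279% and 0.00953% to 0.0198% in Tert+ cells, which did. All 7 T cell markers had negative log2 fold changes and 1, Lck, fell. Their share was 0.0219% to 0.0522% and 0.0101% to 0.0369% in Tert+ cells, and 0.0180% to 0.0553% and 0.00865% to 0.0171% in Tert- cells, with no overlap in Tert- cells. The part of plasma, B, macrophage, T and acinar cells in the lower levels of the ER genes was not tested.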

How the data were processed

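RNA was sequenced from 14 libraries, each made from 1 ng of RNA. The authors deposited raw counts of reads per gene; per the submitters' processing notes, reads were aligned with HISAT2 to mm10. The counting program, its use of strand and the annotation release are not given in the sources used here. The tests used edgeR 4.0.16 under R 4.3.3, with filterByExpr, TMM scaling, 1 term per group over all 14 libraries, robust quasi-likelihood F tests (two-sided), and Benjamini-Hochberg adjustment over 15915 genes, with a threshold of 0.05. SEs and 95% intervals come from the F statistic and its degrees of freedom. The script was tested on simulated data. CPM values are TMM-scaled. Members and lists were chosen with earlier results of these data known. Values per library are given for members past the threshold in any comparison and for sensors, factors and Hspa5; per further list, genes were named from the up to 4 with the smallest p. Alternatives were DESeq2 1.42.0, limma 3.58.1 voom, other scalings and filters, fits of 2 groups, a replicate block and leaving out each library. Of 31 members, 31 had the table's position in GENCODE M21, and 14 overlap another gene. No 2 libraries held identical values. A planned description of the encoded proteins was not made, and values of a macrophage marker are not reported here.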

Additional observations from a re-analysis of the deposited data

Results flagged for a closer look

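Atf6 stood out in 1 library. It was at 142 CPM in Tert+ after RT replicate 3 and between 64.2 and 74.9 CPM in the other 3 libraries of that group, a gap larger than Dixon's 95% limit for 4 values. This was the only such case among the 62 sets of 4 RT libraries examined for the 31 members, and chance gives about 1 in 20.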

How the results depend on the processing

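No call of a member changed direction under any alternative. RT in Tert+ cells gave 3 members past the threshold, where DESeq2 gave 8 and a fit of the 2 groups alone 0. RT in Tert- cells gave 4, where DESeq2 gave 8 and the fit of 2 groups 2. Over all genes these settings called 315, 1057 and 49 in Tert+ cells and 258, 1198 and 88 in Tert- cells. Leaving out 1 library at a time gave 0 to 4 members in Tert+ cells and 0 to 6 in Tert- cells. In the mean of both it gave 9 to 14, where the count was 15. Over all genes the leave-outs called 21 to 507 in Tert+ cells, 18 to 901 in Tert- cells and 1211 to 2516 in the mean of both. Each comparison of Tert+ with Tert-, and the difference of RT effects, gave 0 in every setting run. With the replicate number as a block the counts were 3, 4 and 11, but in Tert+ cells 1 rose and 2 fell: Sdf2l1 no longer passed (adjusted p = 0.0749) and Eif2ak3 did (0.83, adjusted p = 0.0388). The block gives libraries of the same replicate number a shared term with and without RT, a link that the labels do not state. Over all genes it called 265 in Tert+ cells, 257 in Tert- cells and 1627 in the mean of both. In the mean of both, Hspa5 passed with the block (adjusted p = 0.0178). Of members not past in that comparison, Ddit3 passed without Tert- no RT replicate 1 and Sel1l without Tert+ RT replicate 1. In the check of the block, same-numbered libraries of the 2 populations correlated between -0.0491 and 0.119. Not all exceeded 0.1, nor did every library correlate best with its own number. Across RT within a population, same-numbered libraries correlated between -0.0802 and 0.0599. The numbers were therefore not taken to pair libraries, which does not show that paired libraries came from different animals. Leaving out Tert+ no RT replicate 1 and Tert+ RT replicate 4 together, a setting chosen after seeing the data, gave 3, 5 and 11. Over all genes that setting called 416, 493 and 2442. Without a filter on low counts the median of all genes in the mean RT comparison moved to 0.11. Depth limits Ern1, Hyou1 and Derl3, which had as few as 12, 19 and 0 counts in a library. Where a count or call changed, the cause was not tested.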
